A study of Homo sapiens with 15 samples.

Results

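Histone genes encode the proteins that package DNA. The 4 histone genes described here are the linker histone gene HIST1H1C and the core histone genes HIST1H3H, HIST3H2BB and HIST1H2BH. They were chosen by name, as the rows of the gene panel that carry these symbols, and they are 4 of 758 panel genes. No other row of the table carried a histone gene name. All 4 exceeded a linear normalized count of 20 in at least 3 of 15 libraries, as did 622 genes in all, and these 622 were tested.

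The panel, called an array in the labels, was run on 15 libraries of total RNA from JIMT-1, an established human HER2-positive breast cancer cell line. The groups were CTL (n = 4), HSL119 (n = 3), and the HUNK shRNA knockdown lines KD1 (n = 4) and KD2 (n = 4). All cells grew in medium with 10% fetal bovine serum. HSL119 is a compound known here by its code name, and its cells received 1 ug/ul by the labels. The knockdown lines were kept in 1 ug/ul puromycin, while the labels do not say whether CTL cells received puromycin, vehicle or a control shRNA, so shRNA and puromycin cannot be told apart. The exposure time to HSL119, the shRNA sequences and the number of clones behind each line are not given in the sources used here. HUNK, a serine/threonine kinase, has no row in the panel, so its knockdown was not measured.

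In the nucleosome, DNA is wrapped around an octamer of the core histones H2A, H2B, H3 and H4, and a linker histone of the H1 family binds where the DNA enters and leaves. HIST1H1C encodes the H1 variant H1.2, HIST1H3H a canonical H3, and HIST3H2BB and HIST1H2BH are H2B genes. Most canonical histone genes are transcribed in S phase, when new DNA is packaged, and their mRNAs end in a stem-loop rather than a poly(A) tail. Histone transcripts are therefore often read beside other genes of proliferating cells.

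RefSeq names these genes H1-2, H3C10, H2BC26 and H2BC9 today, and 4 of 4 matched. The 250 bases before each annotated start (RefSeq, GRCh38.p14) are shown because the group means of the 4 genes had the same order (CTL, then HSL119, then the knockdowns), with letters of 4 searched motifs in capitals: the TATA box TATAAA, the CCAAT box CCAAT, the octamer ATTTGCAT known from H2B promoters and the AAACACA box known from H1 promoters. Both strands were searched, so a match on the other strand appears as ATTGG or TGTGTTT. The windows lie at chr6:26056471-26056720 (minus strand), chr6:27809801-27810050 (plus strand), chr1:228457853-228458102 (plus strand) and chr6:26251364-26251613 (plus strand), in this order, and run 5′ to 3′ along the gene.
HIST1H1C: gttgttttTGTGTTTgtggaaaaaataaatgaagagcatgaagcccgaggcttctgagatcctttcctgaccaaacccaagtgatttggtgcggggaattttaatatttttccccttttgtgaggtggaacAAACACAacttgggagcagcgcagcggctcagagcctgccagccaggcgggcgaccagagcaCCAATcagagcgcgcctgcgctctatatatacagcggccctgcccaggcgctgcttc
HIST1H3H: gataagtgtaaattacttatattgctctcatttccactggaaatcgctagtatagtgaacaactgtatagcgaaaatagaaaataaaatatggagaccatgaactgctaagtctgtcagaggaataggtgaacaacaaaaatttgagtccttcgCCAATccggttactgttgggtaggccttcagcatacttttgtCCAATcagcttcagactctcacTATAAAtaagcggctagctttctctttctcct
HIST3H2BB: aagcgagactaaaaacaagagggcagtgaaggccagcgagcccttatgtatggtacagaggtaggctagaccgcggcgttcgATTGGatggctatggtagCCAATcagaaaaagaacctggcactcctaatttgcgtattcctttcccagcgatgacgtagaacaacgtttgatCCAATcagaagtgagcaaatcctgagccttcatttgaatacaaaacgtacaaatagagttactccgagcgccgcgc
HIST1H2BH: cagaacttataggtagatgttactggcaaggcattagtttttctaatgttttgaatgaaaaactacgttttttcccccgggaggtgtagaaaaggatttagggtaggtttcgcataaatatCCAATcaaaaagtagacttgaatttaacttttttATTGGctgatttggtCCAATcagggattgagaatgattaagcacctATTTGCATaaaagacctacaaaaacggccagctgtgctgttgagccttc
No matches overlapped. All 4 windows held a CCAAT box, which 32% of 35116 promoter windows of the same length also held. In HIST1H1C it began 57 bases before the start, with AAACACA at 119 on the same strand and at 242 on the other. HIST1H3H held CCAAT at 96 and 54 and was the only window of the 4 with TATAAA, at 32. HIST3H2BB held CCAAT at 150 and 76 and, on the other strand, at 168. HIST1H2BH held CCAAT at 129 and 80, the other strand's at 95, and the octamer at 49. Of all windows, 10.7% held TATAAA, 4.82% AAACACA and 1.63% the octamer. These matches describe letters in a window and not binding.

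The libraries held between 1241234 and 1561639 recovered counts. The lowest count of any histone gene was 1749, with a relative counting error of 2.39%. Counting error was thus small beside the differences of the other groups from CTL below. Libraries 1 and 2, and 3 and 4, of CTL and KD1, and libraries 1 and 2 of KD2, were nearly identical: their counts gave chi-square values of 1.12 to 1.52 for each degree of freedom, against 21.5 for libraries 3 and 4 of KD2 and 5.07 to 157 across pairs. The labels do not say whether such pairs are technical repeats, and nothing says that replicates came from separate cultures, so p-values measure the spread between these samples. Libraries 3 and 4 of both knockdown lines stood apart from libraries 1 and 2, and each knockdown result is therefore given for both pairs as well. Within HSL119, replicate 1 gave 13.9 and 17.6 for each degree of freedom against replicates 2 and 3, which gave 3.96 against each other. Counts were recovered less surely for replicates 2 and 3. In HSL119 replicate 2, 619 genes exceeded the linear value of 20, against 523 to 567 in the other libraries. All 4 breast epithelial markers on the panel were above that value. ERBB2, which encodes HER2, had linear values of 4309 to 4580 in CTL and 12340 to 14204 in HSL119, and CDH1, the gene of E-cadherin, 6161 to 6384 and 9634 to 10892. GRB7, a neighbour of ERBB2 in its amplified region, had 31002 to 32833 and 15270 to 15548, and the keratin gene KRT7 7114 to 7534 and 3941 to 4149, so that the list did not move 1 way. The summed epithelial markers spanned 48585 to 51214 in CTL, 41196 to 44515 in HSL119, 42912 to 48308 in KD1 and 36021 to 44741 in KD2. Of the leukocyte markers, 4 of 11 were on the panel, summing to 459 to 500 in CTL, 216 to 241 with HSL119, 334 to 484 in KD1 and 386 to 566 in KD2. In the same order, the 5 of 6 endothelial markers on the panel summed to 48 to 74, 74 to 115, 83 to 269 and 98 to 331. Among them PECAM1 had 13.8 to 23.9 in CTL, 40.4 to 200 in KD1 and 49.9 to 251 in KD2. CDH5, TEK, KDR and CD34 did not exceed 26.6 in either line. The 4 of 8 fibroblast markers summed to 331 to 388, 278 to 304, 370 to 412 and 349 to 432. The part of these markers in the results was not tested. In RNA from whole cultures, a change in the number of cycling cells and a change in RNA per cell cannot be told apart.

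HIST1H1C, the linker histone gene, was lowest in CTL, higher with HSL119 and highest in both knockdown lines. On the deposited log2 scale, the CTL libraries had 11.95, 11.98, 12.03 and 12.03, and the HSL119 libraries 13.54, 13.79 and 13.84. KD1 had 14.41, 14.36, 15.29 and 15.28, and KD2 had 14.42, 14.43, 15.13 and 15.24, in replicate order. The 3 ranges, CTL, HSL119 and the knockdowns, did not overlap, and libraries 3 and 4 were the highest of each knockdown line. In linear normalized counts this was 4482 to 4649 in CTL, 10617 to 12882 with HSL119, 20957 to 40131 in KD1 and 21874 to 38592 in KD2.

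HIST1H3H, which encodes histone H3, had log2 values of 10.99, 11.01, 10.98 and 11.05 in CTL and 12.18, 12.80 and 13.02 with HSL119. KD1 had 12.49, 12.47, 13.70 and 13.64, and KD2 had 12.35, 12.36, 13.55 and 13.78. Every treated or knockdown library lay above every CTL library. The HSL119 and knockdown ranges overlapped, with HSL119 replicates 2 and 3 above libraries 1 and 2 of both lines and below libraries 3 and 4.

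HIST3H2BB, an H2B gene outside the large cluster on chromosome 6, had log2 values of 11.66, 11.67, 11.98 and 11.93 in CTL and 12.69, 12.74 and 12.82 with HSL119. KD1 had 13.12, 13.09, 13.76 and 13.71, and KD2 had 12.88, 12.89, 13.72 and 14.07. The HSL119 libraries lay between CTL and the knockdowns without overlap, though HSL119 replicate 3 and KD2 replicate 1 were close. HIST1H2BH, an H2B gene within that cluster, had 10.80, 10.82, 11 and 11 in CTL and 12.11, 12.18 and 12.27 with HSL119. KD1 had 12.36, 12.38, 13.33 and 13.33, and KD2 had 12.23, 12.21, 13.24 and 13.57. Here the highest HSL119 library overlapped the lowest KD2 libraries. For both H2B genes, libraries 3 and 4 were the higher ones in CTL as well, by 0.29 for HIST3H2BB and 0.19 for HIST1H2BH on the log2 scale. After scaling by the median of ratios, all 4 genes still separated CTL from every other library, and HIST1H1C and HIST3H2BB still separated HSL119 from the knockdowns. For HIST3H2BB the gap was narrow, from 12.76 in the highest HSL119 library to 12.79 in the lowest KD2 library. The share of all tested genes that separated likewise was not counted.

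**Figure D1:**
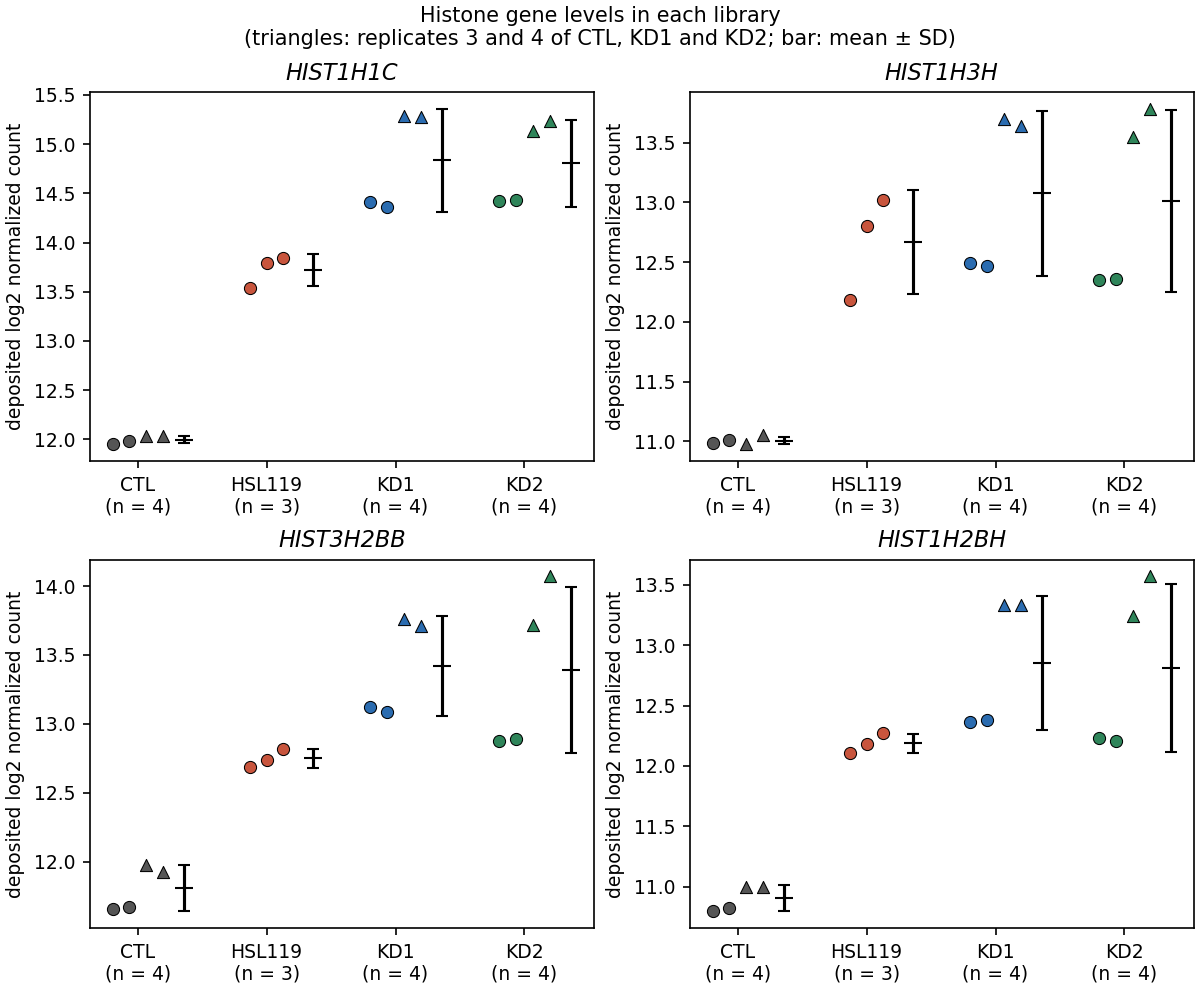
Each point is a library's deposited log2 normalized count for 1 histone gene, by group, with triangles for replicates 3 and 4 of CTL, KD1 and KD2, and bars for the group mean ± SD. In all 4 panels every HSL119, KD1 and KD2 point lies above the 4 CTL points, and the triangles of KD1 and KD2 lie above the circles.

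The group means of HIST1H1C were 12 ± 0.04 (SD, n = 4) in CTL, 13.72 ± 0.16 (SD, n = 3) with HSL119, 14.83 ± 0.52 (SD, n = 4) in KD1 and 14.80 ± 0.44 (SD, n = 4) in KD2 on the deposited log2 scale. Those of HIST1H3H were 11.01 ± 0.03, 12.67 ± 0.43, 13.07 ± 0.69 and 13.01 ± 0.76 with the same n. Those of HIST3H2BB were 11.81 ± 0.17, 12.75 ± 0.06, 13.42 ± 0.37 and 13.39 ± 0.60, and those of HIST1H2BH 10.90 ± 0.11, 12.19 ± 0.08, 12.85 ± 0.55 and 12.81 ± 0.70. The wide spread within KD1 and KD2 followed the step between the library pairs.

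HSL119 against CTL asks which genes the compound changed. HIST1H1C rose 2.49-fold, a log2 difference of 1.32 (95% interval 0.77 to 1.86) relative to the median of all 622 tested genes, which itself lay 0.408 above CTL on the deposited scale. A rise or fall was called where limma's test, adjusted by Benjamini-Hochberg over the 622 genes, gave a p under 0.05 in 1 direction in all of 10 fits, namely 5 scalings, each with all libraries and with the paired libraries averaged. The adjusted p of HIST1H1C ran from 1.11e-05 to 0.0106 over these fits. The intervals here and below count every library separately, and they are too narrow if the nearly identical pairs are technical repeats. They also rest on 1 spread shared by the 4 groups, which takes in the spread within KD1 and KD2. For HIST1H3H the SD was 0.03 in CTL and 0.43 with HSL119, against 0.69 in KD1 and 0.76 in KD2. The core genes were higher in 3 of 3 HSL119 libraries but did not pass in all fits. HIST1H3H differed by 1.25 (0.40 to 2.10), with limma's adjusted p at 0.00184 to 0.079 and 9 fits passed. HIST1H2BH differed by 0.87 (0.17 to 1.58) and passed in 7 fits, with limma's adjusted p reaching 0.141. HIST3H2BB differed by 0.53 (-0.04 to 1.10) and passed in 5, with limma's adjusted p reaching 0.347. Where CTL and HSL119 alone were fitted under the same rule, all 4 histone genes were called, as were 320 of all genes. With 1 of 4 histone genes called higher and 0 called lower, the background was 20.3% of all tested genes called higher and 18.2% called lower.

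KD1 against CTL and KD2 against CTL ask the same of the shRNA lines, and they share the CTL libraries with each other and with the HSL119 comparison. HIST1H1C rose 5.29-fold in KD1, a relative log2 difference of 2.40 (1.90 to 2.91), and 5.23-fold in KD2, a difference of 2.39 (1.88 to 2.90). It ranked 2 from the highest of the 622 genes in both lines, and its adjusted p in limma reached at most 0.007 in KD1 and 0.004 in KD2. HIST1H2BH rose by 1.51 (0.86 to 2.17) in KD1 and 1.5 (0.84 to 2.15) in KD2. HIST3H2BB rose by 1.18 (0.65 to 1.71) and 1.16 (0.64 to 1.69). The highest limma adjusted p of these H2B genes over the 10 fits was 0.0415 and 0.0473 in KD1, and 0.0356 and 0.0447 in KD2, close to the threshold.

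HIST1H3H was higher by 1.64 (0.85 to 2.42) in KD1 and 1.59 (0.80 to 2.37) in KD2, in 4 of 4 libraries of each line, but passed in 8 of 10 fits and is not counted as risen. It missed where paired libraries were averaged on the median-centred and quantile scales, with limma's adjusted p reaching 0.0679 in KD1 and 0.0635 in KD2. Its spread within the lines was the widest of the 4 genes. Thus 3 of 4 histone genes rose in each line, against 6.91% of tested genes called higher in KD1 and 8.68% in KD2, and 0 fell, against 1.13% and 2.41%. Without any 1 of the 3 HSL119 libraries, which enter these fits only through the spread and scaling shared by all libraries, 1 histone gene was called in KD1 and 1 in KD2. Without KD2 replicate 3, 1 was called in KD1 and 2 in KD2, and without KD1 replicate 2, 2 in KD1.

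**Figure D2:**
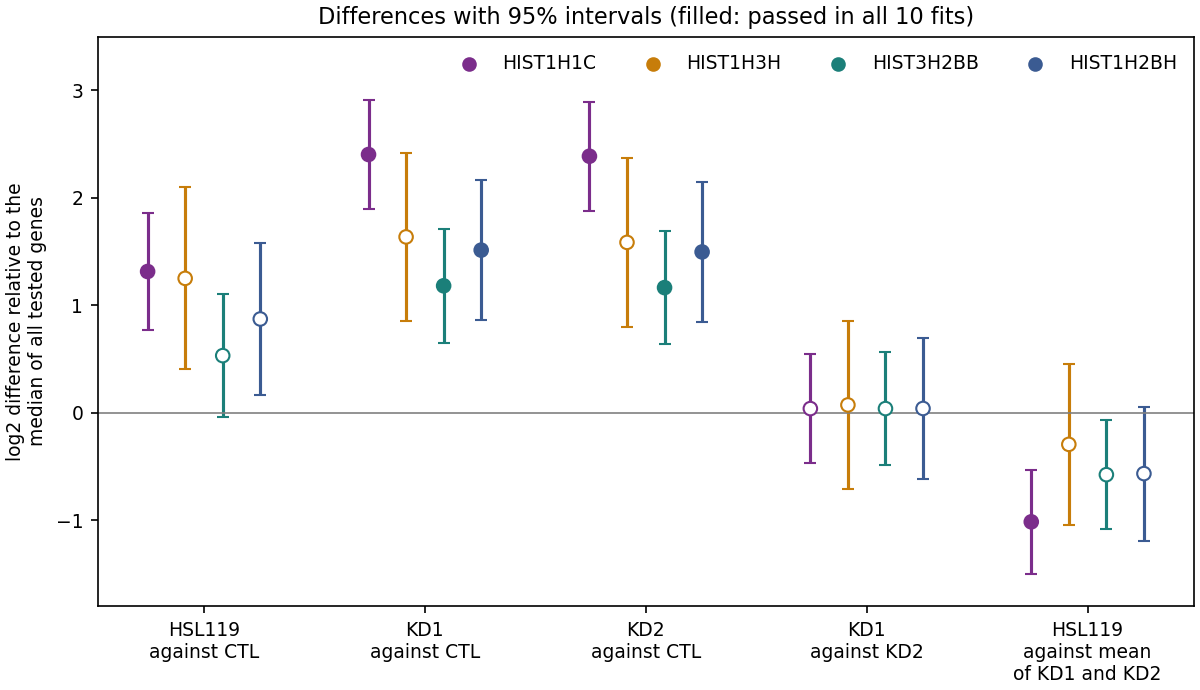
Points are log2 differences of the 4 histone genes relative to the median of all 622 tested genes in 5 comparisons, and filled points passed in all 10 fits. The 95% intervals are from limma on the deposited log2 values, with paired libraries not averaged. HIST1H1C is filled in every comparison except KD1 against KD2, and the intervals of KD1 against KD2 all span 0.

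The size of the rise depended on which knockdown libraries were used. With libraries 1 and 2 alone, the relative log2 differences in KD1 were 2.02 for HIST1H1C, 1.11 for HIST1H3H, 0.93 for HIST3H2BB and 1.10 for HIST1H2BH. With libraries 3 and 4 alone they were 2.82, 2.2, 1.46 and 1.96. In KD2 the values from libraries 1 and 2 were 2.02, 0.94, 0.67 and 0.91, and those from libraries 3 and 4 were 2.73, 2.2, 1.63 and 2.05. These are values with no test, since the libraries of a pair were nearly identical in 3 of the 4 cases and the split was chosen after seeing the data.

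Within the knockdown lines, the step from libraries 1 and 2 to libraries 3 and 4 was itself largest for HIST1H3H among the 4 genes. On the deposited log2 scale HIST1H3H was 1.19 higher in the later-numbered pair of KD1 and 1.31 higher in that of KD2, ranking 10 and 14 from the highest of 622 genes. HIST1H2BH stepped by 0.96 and 1.19, HIST1H1C by 0.91 and 0.76, and HIST3H2BB by 0.63 and 1.01. The median step of all tested genes was 0.08 in KD1 and 0.05 in KD2. In CTL the same step was 0.06 for HIST1H1C and 0.01 for HIST1H3H. What separated the pairs is not stated in the labels, and the step between them was not tested.

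**Figure D3:**
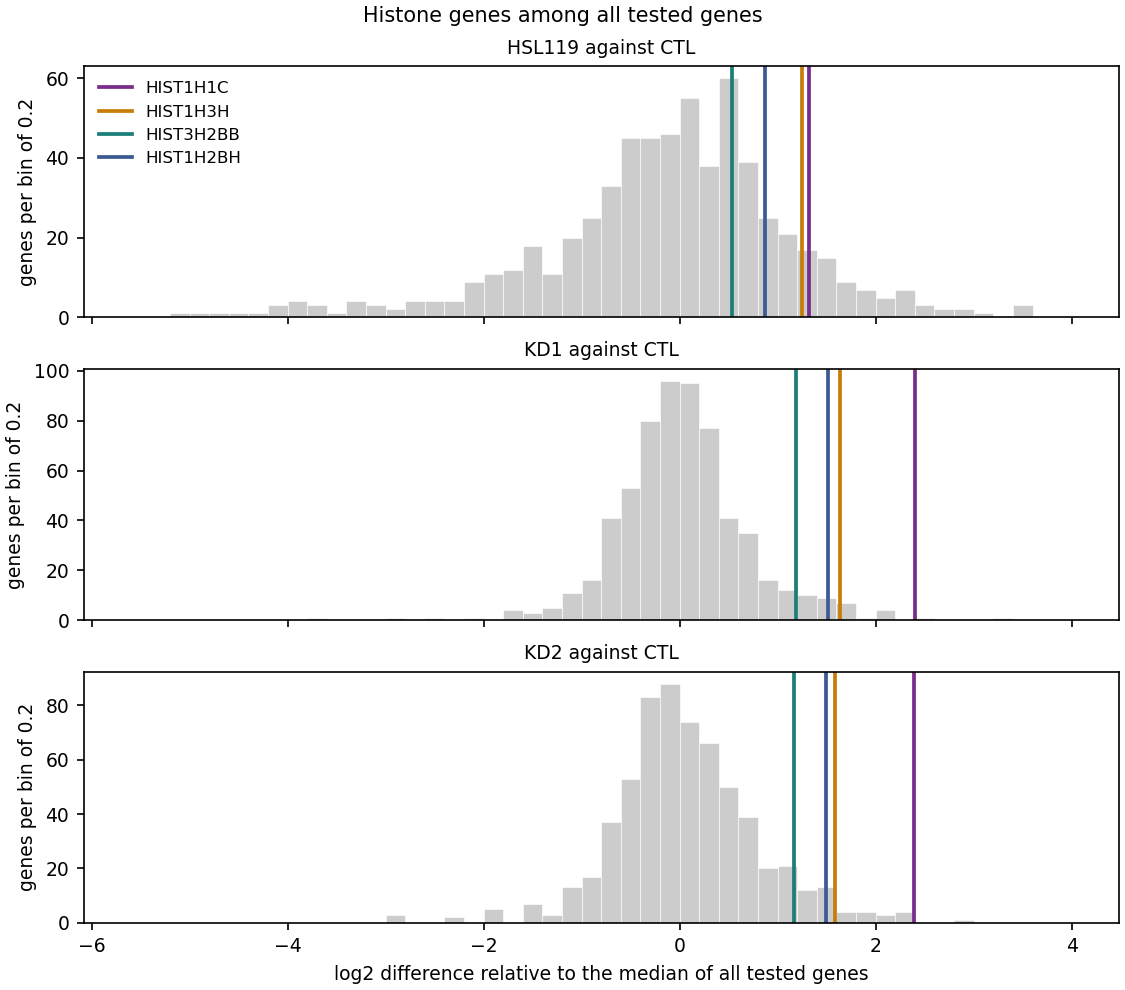
Grey bars count the 622 tested genes by their log2 difference relative to the median in bins of 0.2, for each group against CTL, and the coloured lines mark the 4 histone genes. HIST1H1C stands at 2.40 in KD1 and 2.39 in KD2, at the right edge of the distribution, and at 1.32 with HSL119, where it ranks 63.

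KD1 and KD2 were compared to see whether the shRNA lines differed. The relative log2 differences were 0.04 for HIST1H1C (-0.47 to 0.55), 0.07 for HIST1H3H (-0.71 to 0.86), 0.04 for HIST3H2BB (-0.49 to 0.57) and 0.04 for HIST1H2BH (-0.61 to 0.69). No histone gene passed in any of the 10 fits, with adjusted p of 0.958 or more in limma, and the background was 0% called higher and 0.161% called lower. These intervals come from the fit without a block and include the step between library pairs that both lines share. Between libraries of the same number, KD1 minus KD2 was 0.14, 0.11, 0.15 and -0.14 for HIST1H3H on the deposited log2 scale. Same-numbered libraries of the lines deviated together, and with the replicate number as a block, without averaging, 0 of the 4 histone genes and 44 of the 622 were called, against 34 without the block.

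A contrast of HSL119 with the mean of both knockdown lines asks whether compound and knockdown differ. HIST1H1C was lower with HSL119 by a relative log2 difference of -1.02 (-1.5 to -0.53), and it passed in all 10 fits, with limma's adjusted p at 0.000181 to 0.0128. For the core genes the differences were -0.29 (-1.04 to 0.46) for HIST1H3H, -0.58 (-1.08 to -0.07) for HIST3H2BB and -0.57 (-1.19 to 0.06) for HIST1H2BH, which passed in 0, 7 and 3 fits. So 1 of 4 histone genes was called lower, where 24.8% of all tested genes were called lower and 22.2% higher. Against libraries 1 and 2 of the knockdowns alone, HIST1H1C differed by -0.66, while HIST1H3H turned to 0.27. Against libraries 3 and 4 the differences were -1.43, -0.92, -0.99 and -1.10 for HIST1H1C, HIST1H3H, HIST3H2BB and HIST1H2BH. Without HSL119 replicate 1, and with no filter on low values, HIST1H1C did not pass in all fits. The difference of HIST1H3H ran from -0.47 without HSL119 replicate 3 to -0.07 without HSL119 replicate 1.

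HIST1H1C was also set against the core genes within each library. The difference between HIST1H1C and the mean of the core genes, in log2 units within a library, is free of the library's scale, though its absolute value depends on the probes and is not read as a ratio of transcripts. It was 0.80, 0.82, 0.71 and 0.71 in CTL and 1.21, 1.22 and 1.14 with HSL119. KD1 had 1.75, 1.71, 1.70 and 1.72, and KD2 had 1.93, 1.94, 1.63 and 1.43. The CTL, HSL119 and knockdown ranges did not overlap, with means of 0.76 ± 0.06 (SD, n = 4), 1.19 ± 0.04 (SD, n = 3), 1.72 ± 0.02 (SD, n = 4) and 1.73 ± 0.25 (SD, n = 4). In KD1 the pairs of libraries had nearly the same difference although all 4 genes were higher in libraries 3 and 4. In KD2 it was lower in libraries 3 and 4. The core genes did not contribute alike. HIST1H1C minus HIST1H3H overlapped between CTL, at 0.96 to 1.05 (mean 0.99), and HSL119, at 0.82 to 1.36 (mean 1.06), so with HSL119 the shift was one against the H2B genes. Against HIST3H2BB the difference was 0.05 to 0.32 in CTL and 0.85 to 1.05 with HSL119, and against HIST1H2BH 1.03 to 1.17 and 1.43 to 1.62. In KD1 and KD2 all of these differences lay above their CTL ranges, with means of 1.76 and 1.79 for HIST1H3H, 1.41 and 1.41 for HIST3H2BB, and 1.99 and 1.99 for HIST1H2BH. These measures were chosen after their values were seen and carry no test, and they were not taken for other genes.

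**Figure D4:**
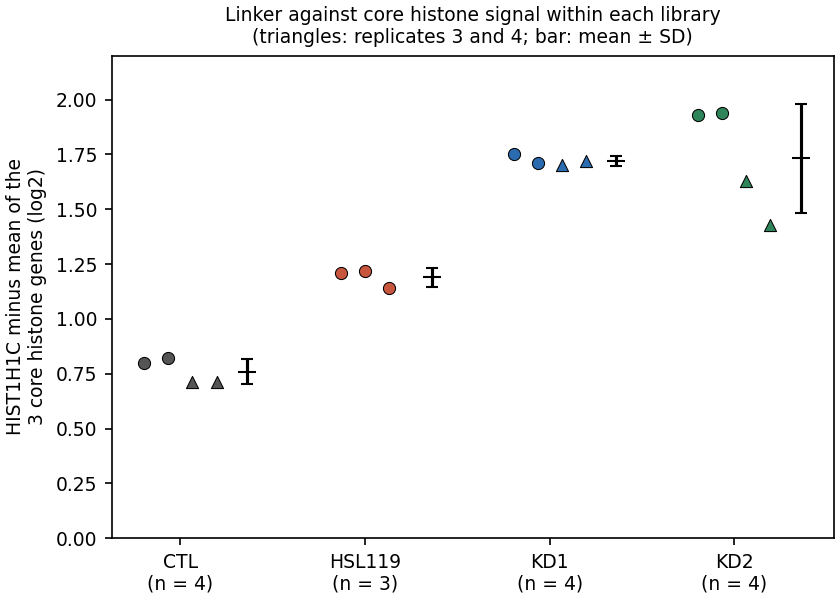
Each point is a library's log2 value of HIST1H1C minus the mean log2 value of the 3 core histone genes, with triangles for replicates 3 and 4 and bars for mean ± SD. CTL lies at 0.71 to 0.82, HSL119 at 1.14 to 1.22, KD1 at 1.70 to 1.75 and KD2 at 1.43 to 1.94.

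Among the core genes the pairs moved differently. HIST3H2BB minus HIST1H2BH was 0.85 to 0.98 in CTL and lower in each other group, at 0.55 to 0.58 with HSL119, 0.38 to 0.76 in KD1 and 0.47 to 0.67 in KD2. HIST1H3H minus HIST1H2BH was -0.02 to 0.20 in CTL and 0.07 to 0.75 with HSL119, where replicate 1 was low in HIST1H3H, 0.09 to 0.37 in KD1 and 0.12 to 0.31 in KD2. With HSL119, the distance between the H2B genes thus varied less from library to library than that of HIST1H3H to HIST1H2BH.

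Together the 4 genes took 0.873% to 0.952% of all recovered counts in CTL and 2.21% to 2.81% with HSL119. In KD1 their share was 2.65%, 2.67%, 4.72% and 4.69%, and in KD2 2.55%, 2.58%, 4.30% and 4.95%. The share was higher in each HSL119 and knockdown library than in every CTL library.

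The histone genes were set beside lists of genes for S phase, mitosis, cell cycle inhibition and chromatin, given by counts and medians of relative log2 differences. The histone median was 1.06 with HSL119, 1.58 in KD1 and 1.54 in KD2, and that of all tested genes is 0 by construction. Of the replication and S phase list, 19 of 39 genes were tested, with a median of -0.47 with HSL119, 0.22 in KD1 and 0.17 in KD2. With HSL119 0 of these rose and 6 fell, where 20.3% of all tested genes were called higher and 18.2% lower. Among the 6 were RRM2, a ribonucleotide reductase subunit that supplies deoxynucleotides, at -2.42 (SE 0.18), and CCNE1, encoding cyclin E1, at -1.95 (SE 0.06). In KD1 CDC6, which loads the replicative helicase, rose by 0.82 (SE 0.09) and CCNE1 fell by 0.79 (SE 0.06). In KD2 CDC6 rose by 0.75 (SE 0.09), and no gene of the list fell. The histone genes and the S phase list thus had medians of opposite sign with HSL119.

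Of 29 tested mitosis genes of 43, 6 rose and 7 fell with HSL119, 4 rose and 0 fell in KD1, and 3 rose and 2 fell in KD2, with medians of -0.22, -0.12 and -0.24. The background with HSL119 was 20.3% of all tested genes called higher and 18.2% lower, so the HSL119 counts are near it. In KD1 it was 6.91% higher and 1.13% lower, and in KD2 8.68% and 2.41%. ASPM, a spindle pole protein gene, rose by 2.65 (SE 0.25) with HSL119, 1.70 (SE 0.23) in KD1 and 1.52 (SE 0.23) in KD2. CDK1, the mitotic kinase, fell by 2.0 (SE 0.13) with HSL119. Of the 10 genes listed as CDK inhibitors or RB1, 3 rose and 2 fell with HSL119 and 0 were called in either line, with medians of 0.14, -0.27 and -0.38. With HSL119, CDKN1C, which encodes p57, fell by 2.7 (SE 0.64), CDKN2D, which encodes an inhibitor of CDK4 and CDK6, fell by 1.74 (SE 0.38), and CDKN1A, which encodes p21, rose by 1.58 (SE 0.12).

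Of all tested genes, 20.3% were called higher with HSL119, 6.91% in KD1 and 8.68% in KD2. Of 3 tested histone acetyltransferase genes of 10, 3 rose with HSL119 and 1 in each line. The gene that rose in each was EP300, which encodes p300, by 1.77 (SE 0.07) with HSL119, 0.66 (SE 0.07) in KD1 and 0.69 (SE 0.07) in KD2. Of 6 tested deacetylase genes of 12, 0 were called against CTL, with medians of 0.21 with HSL119, -0.42 in KD1 and -0.37 in KD2. NSD1, a histone H3 methyltransferase gene and the 1 tested of 23 methyltransferase and demethylase genes, rose by 2.97 (SE 0.25) with HSL119, 1.68 (SE 0.23) in KD1 and 1.73 (SE 0.23) in KD2. ARID1A, a subunit of the SWI/SNF remodelling complex and the 1 tested of 16 remodelling genes, differed by 0.54, 0.30 and 0.14 and was not called.

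NASP, a chaperone of H1 and H3 and the 1 tested of 14 genes of histone transcription, mRNA processing and chaperoning, had deposited log2 values of 7.38 to 7.53 in CTL, 7.91 to 8.06 with HSL119, 8.22 to 9.14 in KD1 and 8.37 to 9.27 in KD2. Its relative differences of 0.15, 0.80 and 0.96 were not called in any of these comparisons. By library, its difference from the CTL mean on the median of ratios scale was 0.37, 0.48, 1.22 and 1.15 in KD1 and 0.56, 0.56, 1.35 and 1.32 in KD2. It was thus higher in libraries 3 and 4 of both lines, as the histone genes were.

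On that scale the histone median by library was 0.87, 1.12 and 1.26 with HSL119. It was 1.07, 1.11, 2.09 and 2.07 in KD1 and 0.96, 0.96, 1.96 and 2.25 in KD2. The S phase median was -0.53, -0.36 and -0.29 with HSL119, then 0.08, 0.03, 0.43 and 0.45 in KD1 and 0.09, 0.10, 0.37 and 0.46 in KD2. Both medians were higher in libraries 3 and 4 of each line. The median of all tested genes stayed between -0.03 and 0.08.

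**Figure D5:**
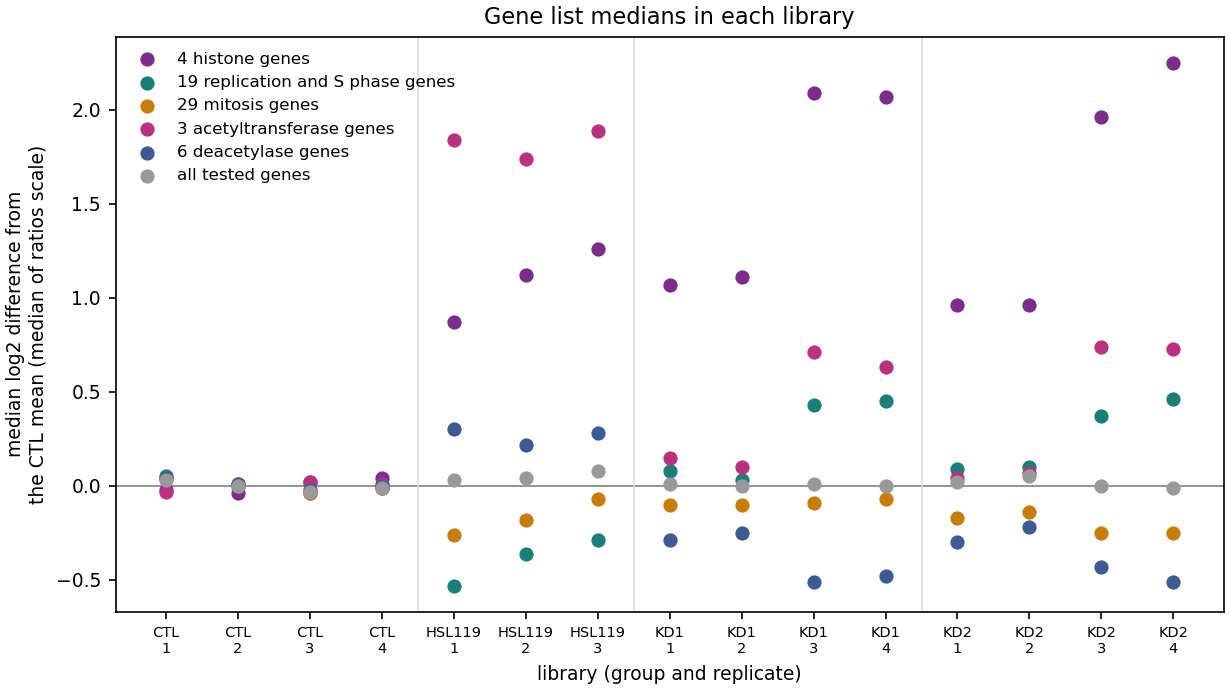
For each library, points give the median log2 difference from the CTL mean, on the median of ratios scale, of the histone genes, of 4 other lists and of all 622 tested genes. The histone median is at 0.87 or more in every HSL119, KD1 and KD2 library, while the S phase median is below 0 with HSL119 and between 0.03 and 0.46 in the knockdowns.

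The genes most like each histone gene were found by Pearson's r of log2 values on the median of ratios scale over the 15 libraries, as a description, since the libraries share groups and pairs. HIST3H2BB and HIST1H2BH were each other's nearest, with r = 0.991, and HIST1H3H was nearest to HIST1H2BH, with r = 0.972. MELK, a kinase gene of proliferating cells, was among the 3 nearest of all 4, at 0.986 for HIST1H1C, 0.968 for HIST1H3H, 0.968 for HIST3H2BB and 0.986 for HIST1H2BH. Its deposited log2 mean was 10.53 in CTL, 11.60 with HSL119, 12.08 in KD1 and 12.10 in KD2, in the same order as the histone genes. Other near genes were BNC2 and BLM for HIST1H1C, at 0.974 and 0.969, and XRCC3 for HIST3H2BB and HIST1H2BH, at 0.972 and 0.976.

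RefSeq lists 18 clustered H2B genes, 13 clustered H3 genes and 10 H1 genes that code for protein, many with nearly the same coding sequence. Whether the panel's probes tell each gene from its close copies was not tested, since probe sequences were not used here, so the identity of each member within its family is uncertain.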

How the data were processed

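RNA of 15 JIMT-1 libraries in 4 groups, taken from the sample titles, was measured on a 758-gene panel. Per the file headers, the authors deposited log2 normalized counts and a linear normalized signal, and the authors' normalization is not given in the sources used here. The series' value table equals the log2 block within 5e-09. Linear values were whole multiples of a step per library within 0.01 for 100% of values, so whole-number counts behind the deposited signal were recovered, less surely for HSL119 replicates 2 and 3. The log2 block lay on average 0.155 below the log2 of the linear block in CTL and 0.172 above it in HSL119, and differed by 0 in the knockdowns, so differences are given relative to the median of all tested genes.

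Genes with a linear value over 20 in at least 3 libraries were tested in 1 fit of 4 groups with limma 3.58.1 in R 4.3.3 (lmFit, eBayes with a trend, two-sided, Benjamini-Hochberg over 622 genes, threshold 0.05). A call needed all of 10 fits: 5 scalings (deposited log2, linear plus 1 in log2, median-centred, quantile, median of ratios), each once with every library and once after averaging replicate 1 with 2 and 3 with 4 in the groups of 4. Adjusted p-values refer to each scale's own differences. Intervals and SE refer to the deposited scale with every library and no averaging, and are too narrow if the nearly identical pairs are technical repeats. They use 1 spread shared by the 4 groups, so those for HSL119 against CTL take in the spread within the knockdown lines. The single limma fit without averaging was tested on simulated data with independent libraries, for HSL119 against CTL. The rule of 10 fits was not tested in this way. The members, lists and call rule were chosen with earlier results of these data known. Per list, at most the 3 called genes with the largest difference were named, and per histone gene the 3 genes of highest correlation; a gene that this rule takes in is not reported here. Deviations of same-numbered libraries from their group means correlated between KD1 and KD2 (0.737, 0.734, 0.764 and 0.594) but not between other groups (-0.214 to 0.128). Correlations between libraries of different number were not computed. Both knockdown lines share the step between library pairs, so these values do not show that single numbers match. The alternatives were other scalings, pseudocounts and filters, eBayes without a trend, fewer groups, a replicate block, libraries left out and edgeR 4.0.16 on recovered counts. The edgeR fit used CTL, KD1 and KD2 and left out HSL119. Promoter windows came from a RefSeq table.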

Additional observations from a re-analysis of the deposited data

Results flagged for a closer look

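HIST1H1C was the 1 histone gene that differed between HSL119 and the knockdowns in all 10 fits, at a relative log2 difference of -1.015 (SE 0.226) with limma's adjusted p at 0.000659 on the deposited scale. On that scale HIST3H2BB passed too, at -0.576 (SE 0.235) and an adjusted p of 0.0245 in limma, and it passed in 7 of 10 fits. For both genes all 3 HSL119 libraries lay below all 8 knockdown libraries. The share of all tested genes that did the same was not counted, while 24.8% were called lower. The call of HIST1H1C was lost without HSL119 replicate 1 and with no filter on low values.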

How the results depend on the processing

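The counts of called histone genes depended on the processing more than the direction of the differences from CTL did. Against CTL, all 120 differences recomputed for KD1 and all 120 for KD2 kept their direction and side of the threshold on the scale used, as did 111 of 116 for HSL119, where 5 no longer passed. For HSL119 against CTL, where 1 gene was called, 4 were called on the deposited, quantile or median of ratios values alone, with pairs averaged on the deposited values, with the compared groups alone (with and without averaging), with the replicate block, and with knockdown libraries 1 and 2 or 3 and 4 alone. There, 3 were called on log2 of the linear value plus 0.5, 1 or 5, and 2 on median-centred values, with no filter, or on 5 scalings without averaging. On 1 of the 5 scalings alone, 408 to 445 of the 622 tested genes were called in this comparison, against 239 as reported. The other settings that called 4 histone genes called 290 to 390 of all genes, and 5 scalings without averaging called 280. For KD1 and KD2 against CTL, where 3 histone genes were called, 0 were called when the compared groups alone were fitted with pairs averaged. That fit had 2 values a group and called 0 of all genes. Without averaging, the same fit called 160 and 154 genes, with 4 histone genes each. With eBayes without a trend, 1 histone gene was called in KD1 and 2 in KD2, where 38 and 64 of all genes were called. With no filter 2 were called in KD1 and 3 in KD2, and on each scaling alone 4 in each. On 1 scaling alone, 274 to 373 of the 622 tested genes were called in KD1 and 312 to 386 in KD2. Leaving out each library gave 1 to 3 histone genes in KD1 and 1 to 3 in KD2. All genes called in KD1 were 50, but 15 without HSL119 replicate 2 and 17 without replicate 3, and in KD2 69, but 45 without HSL119 replicate 3. For HSL119 against the knockdowns, where 1 histone gene was called, 2 were called on the deposited or median of ratios values alone. On median-centred values or log2 of the linear value plus 0.5, 1 or 5, 3 were called. Against knockdown libraries 3 and 4, 4 were called on 5 scalings without averaging, which treats the libraries of a pair as separate. With no filter 0 were called. Leaving out each library gave 0 to 1. Of the 622 tested genes, 411 were called on deposited values in this comparison, against 292 as reported. On median of ratios 418 were called, on median-centred values 422, on the 3 linear scales 425, and against knockdown libraries 3 and 4 372. HIST1H3H reversed there to 0.274 against knockdown libraries 1 and 2. KD1 against KD2 changed sign in 20 of 120 differences, none past the threshold as reported: leaving out each library gave -0.097 to 0.177 for HIST1H1C, -0.127 to 0.322 for HIST1H3H, -0.111 to 0.261 for HIST3H2BB and -0.143 to 0.286 for HIST1H2BH. Libraries 1 and 2 alone gave -0.029 for HIST1H1C, libraries 3 and 4 alone gave -0.153 for HIST3H2BB and -0.075 for HIST1H2BH, and edgeR gave -0.009 for HIST3H2BB. With the replicate block, 4 histone genes were called in each comparison with CTL, 0 between KD1 and KD2 and 1 for HSL119 against the knockdowns. Against CTL that block called 290 of all genes with HSL119, 159 in KD1 and 180 in KD2. It gave all groups the same effect of a replicate number, and HSL119 has no replicate 4. Numbers showed little correlation outside the knockdown lines, so the block counts against CTL rest on a pairing that the data did not show. edgeR's quasi-likelihood test on recovered counts called 4 histone genes in KD1 and 4 in KD2, of 278 and 324 genes. The cause of these changes was not tested. The edgeR fit, the split of knockdown libraries and the fits without averaging were chosen after seeing the data.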
